A study of Mus musculus with 4 samples.

Results

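The Myc, Max and Mxd network comprised 10 genes, chosen by name: Myc, Mycn, Mycl1, Max, Mxd1, Mxd3, Mxd4, Mxi1, Mnt and Mlx. They were taken from the rows of 2 deposited expression tables of MMTV-Myc cells, mouse mammary tumour cells in which a Myc transgene is driven by the mouse mammary tumour virus promoter. All 10 had a row among the 22440 of the mammosphere table and 8 of them among the 11708 rows of the Cbx8 table, which listed neither Mycn nor Mycl1. Each member had a single row per table, so no choice between rows was needed.

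Poly(A) RNA was sequenced from 4 cultures, 1 library per group. The first table set MMTV-Myc mammosphere cells of day 20, kept without attachment with EGF and bFGF, against MMTV-Myc bulk cells of day 0, grown with serum and insulin. The second set MMTV-Myc cells carrying the lentiviral shRNA sh68 against Cbx8, a chromodomain subunit of a Polycomb repressive complex, against cells carrying a control shRNA (labelled shLuc in one place and shScr in another), both under puromycin. The transgene is common to all 4 cultures, the knockdown rests on 1 hairpin, and the sources used here do not say if the cells came from several tumours or 1 clone, or if the shRNA cultures were attached. How far transcripts of the transgene enter the Myc row is not given either, so the Myc values below are for whatever the authors assigned to that row.

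Myc is a basic helix-loop-helix leucine zipper transcription factor that binds DNA only as a dimer with Max, at E-boxes such as CACGTG, where it activates genes of growth, ribosome production and metabolism. The Mxd proteins (Mxd1, Mxd3, Mxd4 and Mxi1) and Mnt compete for the same partner and sites, and recruit Sin3 and histone deacetylases to repress. Mlx is a Max-like partner for the glucose-sensing factors Mlxip and Mlxipl and for some Mxd proteins and Mnt. In mammary epithelium Myc drives proliferation, and Mxd1 is known as a gene switched on when many cell types differentiate.

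Because network proteins bind the E-box and several are themselves transcribed from promoters that hold it, the promoter windows of the members are shown first. The RefSeq table used (build GRCm38.p6, 250 bases before to 50 after each start) had windows for 9 of the 10 genes, with 3 for Mxi1. Myc was the member with no entry. The E-box CACGTG, which reads the same on both strands, was found in the windows of 4 of these 9 genes: Max, Mxd4, Mnt and Mlx. Over all genes of that table, 8.09% had the motif in at least 1 window, and 11.96% of the genes at 1 FPKM or more in the bulk library did. These are matches of letters and were not measured as binding here. The next 3 lines give the motif in capitals with 17 bases on each side, from the gene's strand (Max minus, Mnt and Mlx plus).
Max, chr12:76962229-76962268: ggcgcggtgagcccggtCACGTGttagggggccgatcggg
Mnt, chr11:74830784-74830823: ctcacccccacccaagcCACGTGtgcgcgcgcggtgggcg
Mlx, chr11:101087233-101087272: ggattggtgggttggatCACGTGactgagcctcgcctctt
Counted from the start of transcription, with negative positions before it, the motif began at -3 in Max, -40 in Mlx and -123 in Mnt.

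Mxd1 and Mxd4 are printed over the full 250 bases before the start (both on the minus strand), since they were the antagonist genes that differed most between mammosphere and bulk cells. Mxd4 held the motif at -219, shown in capitals, and the Mxd1 window did not hold these letters. The 300-base Mxd1 window was 76.7% G and C, the highest of the 11 member windows, and that of Mxd4 was 61.0%.
Mxd1, chr6:86669160-86669409: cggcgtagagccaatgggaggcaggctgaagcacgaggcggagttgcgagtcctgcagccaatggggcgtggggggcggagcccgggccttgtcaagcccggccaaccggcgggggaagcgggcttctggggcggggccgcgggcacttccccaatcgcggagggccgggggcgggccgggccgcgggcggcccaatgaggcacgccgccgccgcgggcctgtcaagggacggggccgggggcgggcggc
Mxd4, chr5:34187711-34187960: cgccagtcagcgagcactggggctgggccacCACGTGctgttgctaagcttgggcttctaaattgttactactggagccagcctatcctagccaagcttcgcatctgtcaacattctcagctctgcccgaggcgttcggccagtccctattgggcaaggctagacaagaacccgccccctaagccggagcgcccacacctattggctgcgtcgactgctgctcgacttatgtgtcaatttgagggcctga

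Values are FPKM, read fragments counted relative to a transcript's length and to the size of its library, so levels can be ordered between genes of 1 library. Changes are log2((FPKM + 1)/(FPKM + 1)), which shrinks the differences of weakly expressed genes, and a gene is counted at 2-fold or more on that scale. No test across replicates was possible with 1 library per group, so no difference below has an estimate of biological spread, and depth is unknown because the tables hold no counts. The tables came from separate runs, and every change was computed within a table. Cbx8 itself was at 1.23 FPKM in the knockdown library and 4.74 FPKM in the control library, 3.84-fold lower as a plain ratio. With 1 FPKM added its log2 change was -1.36, and the authors' q for this row was not under 0.05. The mammosphere table as a whole was shifted: over the 10146 rows at 1 FPKM or more in both libraries the median log2 change was -0.19, against -0.006 over 10408 rows of the knockdown table. Cell type markers differed in the same direction in the mammosphere library. All 5 leukocyte markers were 2-fold or more lower (summed 0.220 FPKM in mammospheres and 340 FPKM in bulk, with Tyrobp listed at 0 in mammospheres), as were 3 of 4 fibroblast markers (0.966 FPKM in mammospheres and 230 FPKM in bulk), 2 of 3 endothelial markers (0.240 FPKM in mammospheres and 5.40 FPKM in bulk) and 4 of 6 epithelial markers (63.5 FPKM in mammospheres and 926 FPKM in bulk, with Krt8 at 5.14 FPKM in mammospheres and 334 FPKM in bulk, and Cdh1 at 0.0135 FPKM in mammospheres and 1.04 FPKM in bulk). Epcam, which did not reach 2-fold on this scale, was at 0.0908 FPKM in mammospheres and 1.06 FPKM in bulk. The part of these cell type markers in the network's differences was not tested, and fewer cells of a type cannot be told apart from less RNA per cell. In the knockdown table, leukocyte and endothelial markers had no row, 5 epithelial markers summed to 346 FPKM in the knockdown and 326 FPKM in the control library (1 was 2-fold or more higher, Krt14, at 10.5 FPKM in the knockdown and 1.09 FPKM in the control library), and the 3 listed fibroblast markers summed to 1.72 FPKM in the knockdown and 3.76 FPKM in the control library.

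Mammosphere cells had less Myc, Mxd1 and Mxd4 transcript than bulk cells, while Max, Mxd3, Mxi1, Mnt and Mlx differed by less than 2-fold. Of the 8 members at 1 FPKM or more, which reached it in both libraries, 3 were 2-fold or more lower and 0 were 2-fold or more higher. Among all 11603 rows at that level, 17.3% were 2-fold or more lower and 3.54% higher, and 3 of 8 members cannot be judged against that share without a test. The median of the 8 members was -0.32, beside -0.24 over all rows. After centring on the shift above, or with upper quartiles set equal, Mxd1 was the 1 member beyond 2-fold. The share of all rows lower was then 13.3% centred and 12.8% with equal upper quartiles, and the share higher 5.63% and 6.74% in that order.

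Myc lies on chromosome 15 (61816896 to 61821916, build mm9, as are the positions that follow). Its level was 361 FPKM in mammospheres and 815 FPKM in bulk. It ranked 109 among the 11603 rows in mammospheres and 59 in bulk, and was the most abundant member in both. The log2 change was -1.17, and -0.99 once centred. In the authors' deposited table this row had p = 0.0199 and q = 0.131, and it was not among the 11.9% of tested rows with q under 0.05. Abundant rows were lower as a class: of the 616 rows averaging 100 FPKM or more, 113, Myc included, had a change as low as that of Myc or lower, and the median of the 616 was -0.46.

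The other family members of Myc were close to undetected. Mycn (chromosome 12, 12942899 to 12948642), the family member of the developing nervous system, was listed at 0 in mammospheres and at 0.111 FPKM in bulk. Mycl1 (chromosome 4, 122673342 to 122679723), best known from lung cancer, was at 0.00907 FPKM in mammospheres and 0.0863 FPKM in bulk. Neither reached 1 FPKM, and Myc made up practically the whole family sum, at 361 FPKM in mammospheres and 815 FPKM in bulk.

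Max (chromosome 12, 78038256 to 78063235), the obligate partner of Myc and of its antagonists, was at 36.1 FPKM in mammospheres and 42.8 FPKM in bulk. Its log2 change of -0.24 lay at the median of all rows, and the authors' deposited table gave q = 0.854. The Myc family sum was therefore 10.0 times the Max level in mammospheres and 19.0 times in bulk. Mlx (chromosome 11, 100948604 to 100956715), the Max-like partner, was at 14.6 FPKM in both libraries, with a log2 change of -0.002.

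**Figure D1:**
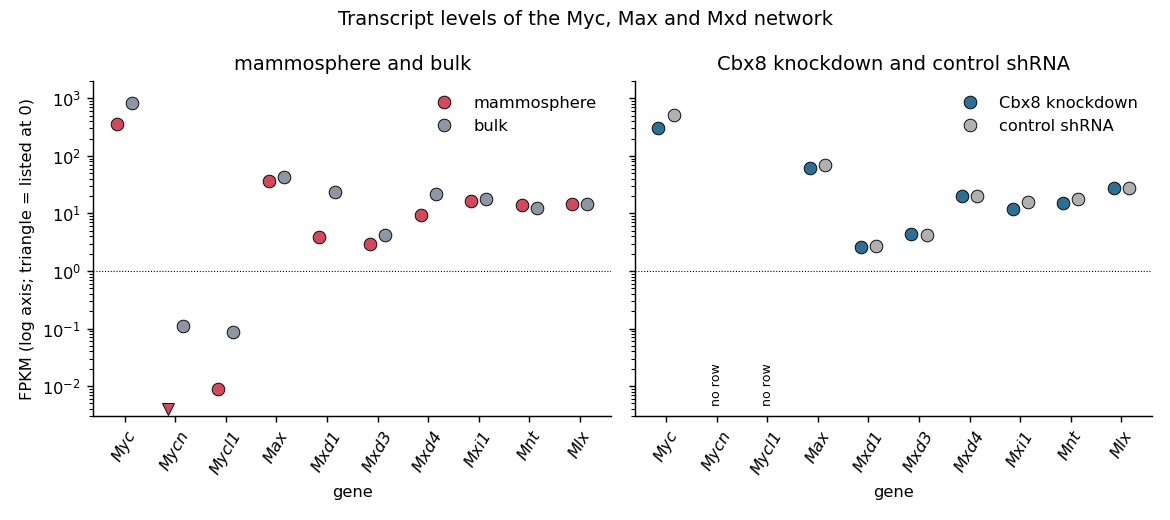
FPKM on a log axis for the 10 members in mammosphere and bulk libraries (left) and in Cbx8 knockdown and control shRNA libraries (right), 1 point per library, with the dotted line at 1 FPKM. Myc stands above all other members in each library, and the widest gap between a pair of points above the line is that of Mxd1 on the left, at 3.95 FPKM in mammospheres and 23.2 FPKM in bulk.

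The antagonists split. Mxd1 (chromosome 6, 86597039 to 86619153), the founding Mxd repressor, was at 3.95 FPKM in mammospheres and 23.2 FPKM in bulk, 5.86-fold lower as a plain ratio. Its log2 change was -2.29, and 4.21% of all rows, or 3.81% of the 4693 rows within 2-fold of its mean level, were as low or lower. Mxd4 (chromosome 5, 34519229 to 34530359), a widely expressed Mxd repressor, was at 9.43 FPKM in mammospheres and 21.5 FPKM in bulk, a log2 change of -1.11, with 10.7% of the 4666 rows of like level as low or lower. Mxd1 was the most abundant antagonist in bulk, whereas in mammospheres Mxi1, Mnt and Mxd4 were above it.

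Mxd3 (chromosome 13, 55423416 to 55431091), the Mxd member linked to S phase in proliferating cells, was low in both libraries, at 2.93 FPKM in mammospheres and 4.22 FPKM in bulk. Mxi1 (chromosome 19, 53384996 to 53450300), also known as Mxd2, was at 16.7 FPKM in mammospheres and 17.7 FPKM in bulk. Mnt (chromosome 11, 74644426 to 74659227), the antagonist that is present in cycling and resting cells alike, was at 13.9 FPKM in mammospheres and 12.4 FPKM in bulk, and was the 1 measured member with a positive change (0.15). None of these 3 reached 2-fold, and the authors' deposited table marks all 5 antagonist rows as not tested, with q listed as 1; it still lists p = 1.29e-05 for Mxd1 and p = 0.0504 for Mxd4.

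The make-up of the antagonist pool also differed. Summed over Mxd1, Mxd3, Mxd4, Mxi1 and Mnt, the pool was at 46.9 FPKM in mammospheres and 79.1 FPKM in bulk. Mxd1 gave 8.44% of it in mammospheres and 29.3% in bulk, whereas Mxi1 gave 35.6% in mammospheres and 22.4% in bulk, and Mnt 29.6% in mammospheres and 15.7% in bulk. The Myc family sum was 7.71 times the antagonist sum in mammospheres and 10.3 times in bulk, a log2 difference of -0.42 in that ratio. This ratio is taken within a library and does not depend on the scaling between libraries.

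**Figure D2:**
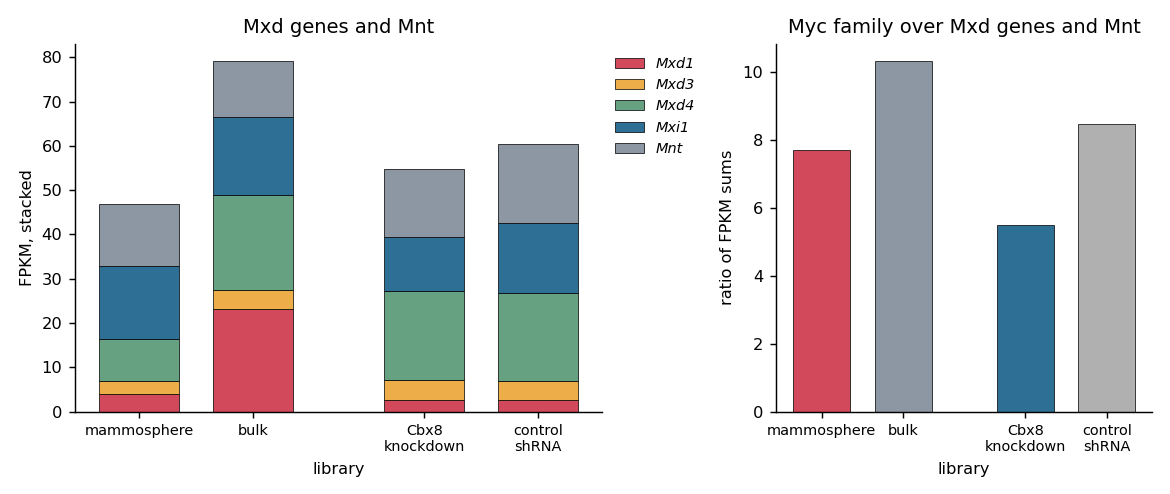
Stacked FPKM of the 5 antagonist genes (left) and the Myc family sum divided by the antagonist sum (right), 1 bar per library, with each table's pair side by side. Mxd1 fills 29.3% of the bulk bar and at most 8.44% of each other bar, and the ratio is lower in mammosphere (7.71) than in bulk (10.3) and in knockdown (5.50) than in control (8.45) libraries.

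In the knockdown comparison Myc was the member that differed most. Myc was at 301 FPKM in the Cbx8 knockdown library and 511 FPKM in the control library, 1.70-fold lower as a plain ratio and -0.76 on the log2 scale. Of 10670 rows at 1 FPKM or more, 1.04% had a change as low or lower, and of the 827 rows averaging 100 FPKM or more, 9 did, Myc included. In the authors' deposited table the row had p = 0.00435 and q = 0.490, where 0.205% of 11708 rows had q under 0.05. Its rank among the 10670 rows was 167 in the knockdown and 69 in the control library. No member reached 2-fold in either direction, against 0.394% of all rows lower and 0.262% higher. At a limit of 1.5-fold Myc was the 1 member beyond it, and the share of all rows beyond that limit was not computed.

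The partners differed little. Max was at 61.4 FPKM in the knockdown and 69.0 FPKM in the control library (log2 -0.17), and Mlx at 28.2 FPKM in the knockdown and 27.7 FPKM in the control library (0.02). The Myc sum was 4.91 times the Max level in the knockdown and 7.40 times in the control library. A log2 change as low as that of Max was seen in 21.0% of all rows.

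Among the antagonists, Mxi1 was at 12.2 FPKM in the knockdown and 15.8 FPKM in the control library (log2 -0.35), a change that 6.42% of all rows matched or passed downwards. Mnt was at 15.4 FPKM in the knockdown and 17.9 FPKM in the control library (-0.20). Mxd4 was at 20.2 FPKM in the knockdown and 19.9 FPKM in the control library, Mxd3 at 4.38 FPKM in the knockdown and 4.201 FPKM in the control library and Mxd1 at 2.65 FPKM in the knockdown and 2.70 FPKM in the control library. These 3 differed by at most 0.05 on the log2 scale. The authors' deposited table gave q = 0.999 for each member other than Myc.

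The antagonist sum was 54.8 FPKM in the knockdown and 60.5 FPKM in the control library, and the Myc sum was 5.50 times this in the knockdown and 8.45 times in the control library (log2 difference -0.62). Mxd4 gave the largest part of the pool in both, 36.8% in the knockdown and 32.9% in the control library. Mxd1 gave 4.84% in the knockdown and 4.46% in the control library. The median over the 8 members was -0.09, beside -0.006 over all rows.

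**Figure D3:**
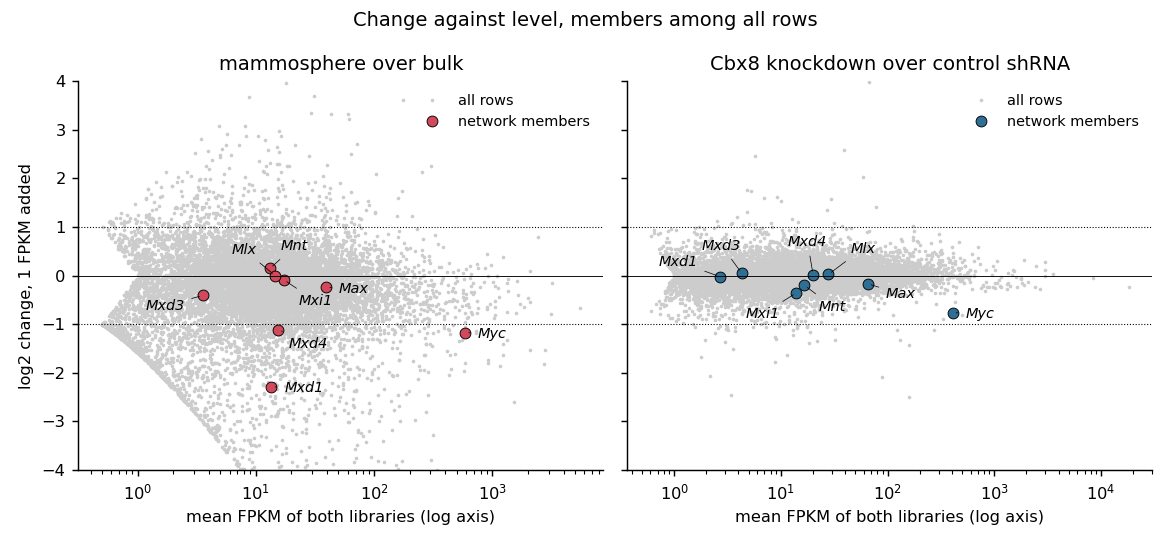
Log2 change with 1 FPKM added (vertical) against the mean FPKM of both libraries on a log axis, for rows at 1 FPKM or more (grey) and the 8 members at that level (coloured), with dotted lines at 2-fold. Rows beyond 4 on the vertical axis are not drawn. Mxd1 (-2.29), Myc (-1.17) and Mxd4 (-1.11) lie past the lower line on the left and no member does on the right, where Myc (-0.76) lies at the lower edge of the abundant rows.

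Set in order within each library, Myc and Max held the first 2 places in all 4 libraries. The places below them differed between mammospheres and bulk, and also between tables. In mammospheres the order after Max was Mxi1, Mlx, Mnt, Mxd4, Mxd1 and Mxd3, and in bulk it was Mxd1, Mxd4, Mxi1, Mlx, Mnt and Mxd3. In the knockdown library it was Mlx, Mxd4, Mnt, Mxi1, Mxd3 and Mxd1, and the control library had the same order. With 1 library per group no neighbours in these orders can be said to differ beyond their spread.

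The 5 rows closest to Myc over both changes (distance in log2 units, among 8232 symbols at 5 FPKM or more in the higher library of each table) were Dgka, 1810011O10Rik, Flt1, Anpep and Emb. Dgka, a diacylglycerol kinase, was at 7.72 FPKM in mammospheres and 19.7 FPKM in bulk, and at 3.67 FPKM in the knockdown and 6.83 FPKM in the control library. The others had log2 changes of -1.12 to -0.99 in mammospheres and -0.73 to -0.60 in the knockdown. This likeness rests on 2 differences between single libraries. Among the 8232 symbols, 10 were as low as Myc or lower in both comparisons.

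Genes around the network were taken from lists chosen for their known roles, with earlier results of these data known. Where a gene of these lists is named without the authors' q for a comparison, that q was not under 0.05 or the row was not tested. Their mammosphere counts are to be read beside the 17.3% of all rows that were 2-fold or more lower, the 3.54% higher and the 65.3% with a negative change. Of 7 related factors, 5 were at 1 FPKM or more in each table and none reached 2-fold in either. Mga, a Max partner that also carries a T-box, was at 8.22 FPKM in mammospheres and 6.58 FPKM in bulk, and at 7.85 FPKM in the knockdown and 10.9 FPKM in the control library (log2 -0.43). Mlxip, the Mlx partner also called MondoA, was at 10.04 FPKM in mammospheres and 12.5 FPKM in bulk and at 10.3 FPKM in the knockdown and 11.7 FPKM in the control library. Mlxipl, the carbohydrate response factor ChREBP, stayed under 1 FPKM, at 0.777 FPKM in mammospheres and 0.00991 FPKM in bulk, and had no row in the knockdown table. Usf1 and Usf2, E-box factors outside the network, lay between -0.32 and -0.04 in both comparisons.

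Of 14 co-activators of Myc, none was 2-fold different in either comparison. In mammospheres 10 of 14 were negative (median -0.13), where 65.3% of all rows were (median -0.24), with the histone acetyltransferase Crebbp at 7.12 FPKM in mammospheres and 13.6 FPKM in bulk and the AAA ATPase Ruvbl2 at 136 FPKM in mammospheres and 77.0 FPKM in bulk. In the knockdown 14 of 14 were negative, where 51.2% of all rows were, with a median of -0.15. Their changes were small, from -0.28 to -0.008. The lists were drawn up with earlier results of this knockdown library known, so the count is not independent evidence. The lowest of the 14 was Ep300, a histone acetyltransferase, at 24.2 FPKM in the knockdown and 29.6 FPKM in the control library. Wdr5, which contacts Myc and H3K4 methyltransferases, was at 61.8 FPKM in the knockdown and 73.2 FPKM in the control library.

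Of 8 co-repressors of the Mxd proteins, Sap18, a Sin3-associated protein, was 2-fold or more lower in mammospheres, at 45.9 FPKM in mammospheres and 100.7 FPKM in bulk. Sin3a, the scaffold that Mxd proteins bind, was at 28.9 FPKM in mammospheres and 18.0 FPKM in bulk (log2 0.66). The list median was -0.21 in mammospheres and -0.15 in the knockdown, where none of the 8 reached 2-fold.

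Of 12 genes that act on Myc protein turnover, 1 was 2-fold or more higher and 2 were lower in mammospheres, the lower count being near the 17.3% share of all rows. The higher one was Skp2, an F-box subunit of a ligase for Myc, at 8.35 FPKM in mammospheres and 2.34 FPKM in bulk. The lower ones were Pim1, a kinase that stabilises Myc, at 7.75 FPKM in mammospheres and 90.6 FPKM in bulk (q = 4.53e-08 in the authors' deposited table), and the F-box gene Fbxo32, at 1.13 FPKM in mammospheres and 6.02 FPKM in bulk. Trim32, a ubiquitin ligase, was at 13.3 FPKM in mammospheres and 6.29 FPKM in bulk (log2 0.98). Skp2 was also the furthest from 0 in the knockdown table, in the other direction, at 18.0 FPKM in the knockdown and 30.9 FPKM in the control library (log2 -0.74). Fbxw7, the F-box protein that recognises phosphorylated Myc, was at 7.15 FPKM in mammospheres and 9.78 FPKM in bulk, and at 7.73 FPKM in the knockdown and 8.44 FPKM in the control library.

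Of 30 genes known to be activated by Myc, 29 were at 1 FPKM or more in the mammosphere table, and 3 were 2-fold or more higher and 1 lower, beside 3.54% of all rows higher and 17.3% lower. Of the 29, 16 were negative, where 65.3% of all rows were, and the median was -0.14 beside -0.24 for all rows. The higher ones were the telomerase subunit Tert (4.86 FPKM in mammospheres and 1.503 FPKM in bulk), the RNA polymerase I subunit Polr1b (37.9 FPKM in mammospheres and 16.6 FPKM in bulk) and the serine hydroxymethyltransferase Shmt2 (101 FPKM in mammospheres and 48.5 FPKM in bulk), and the lower one was the chaperonin Hspd1 (185 FPKM in mammospheres and 383 FPKM in bulk). Among the 11 targets averaging 100 FPKM or more, 8 were negative (median -0.43), beside 77.9% of the 616 rows at that level (median -0.46).

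In the knockdown table all 30 were measured, none reached 2-fold, and 25 of 30 were negative with a median of -0.17, where 51.2% of all rows were negative. Among the abundant ones, averaging 100 FPKM or more, 12 of 15 were negative (median -0.17), beside 42.9% of the 827 rows at that level (median 0.03). The lowest were Tert (2.47 FPKM in the knockdown and 4.09 FPKM in the control library), the serine hydroxymethyltransferase Shmt1 (27.6 FPKM in the knockdown and 36.3 FPKM in the control library), fibrillarin Fbl (14.6 FPKM in the knockdown and 19.0 FPKM in the control library) and nucleophosmin Npm1 (374 FPKM in the knockdown and 477 FPKM in the control library). The ornithine decarboxylase Odc1, a classical target, was at 94.8 FPKM in the knockdown and 94.0 FPKM in the control library. Since these lists were drawn up knowing that ribosome biogenesis genes and Myc targets were slightly lower in this same knockdown library, the count is not independent evidence of that direction.

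Of 12 genes listed here as repressed by Myc, 6 were 2-fold or more lower and 1 higher in mammospheres, beside 17.3% of all rows lower and 3.54% higher. That label was taken as given for each gene and was not tested in these cells. It is in doubt for Id2, the lowest gene of the list, which counts among the 6 and enters the median below. Of the 12, 11 were negative, where 65.3% of all rows were, and the median was -0.84 beside -0.24 for all rows. The 4 furthest from 0 were Id2, an inhibitor of helix-loop-helix factors (0.969 FPKM in mammospheres and 35.8 FPKM in bulk), the stress gene Gadd45g (8.53 FPKM in mammospheres and 67.0 FPKM in bulk), Ndrg1 (53.9 FPKM in mammospheres and 215 FPKM in bulk) and Ndrg2 (25.3 FPKM in mammospheres and 5.62 FPKM in bulk). The authors' deposited table listed q = 1.47e-07, 1.45e-05, 0.00808 and 0.00379 for these 4 in turn, and Ndrg2 was the gene in the higher direction. Of the 12, 11 were measured at 1 FPKM or more in the knockdown comparison, 7 were positive and 4 negative, where 51.2% of all rows were negative, and the median was 0.13 beside -0.006 for all rows. There Ndrg2 was the 1 gene of these 11 that was 2-fold or more lower, beside 0.394% of all rows. It was at 5.89 FPKM in the knockdown and 13.2 FPKM in the control library. Gadd45g, in contrast, was at 45.3 FPKM in the knockdown and 26.3 FPKM in the control library. The CDK inhibitor Cdkn1c was at 3.79 FPKM in the knockdown and 8.07 FPKM in the control library (log2 -0.92). Cdkn1a, another CDK inhibitor, was at 82.0 FPKM in the knockdown and 84.2 FPKM in the control library.

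Of 10 regulators of Myc transcription, 9 were at 1 FPKM or more in each comparison. Among them, only the Wnt pathway factor Tcf7 was 2-fold or more lower, in both comparisons, and none was higher. Of all rows, 17.3% were 2-fold or more lower in mammospheres and 0.394% in the knockdown. Tcf7 was at 1.80 FPKM in mammospheres and 10.2 FPKM in bulk. Its level was 1.97 FPKM in the knockdown and 5.49 FPKM in the control library. The authors did not test Tcf7 in the mammosphere comparison, and its q in the knockdown comparison was not under 0.05. Stat3 was at 34.1 FPKM in mammospheres and 66.1 FPKM in bulk. Notch1, whose signalling can activate Myc, was at 8.83 FPKM in the knockdown and 18.1 FPKM in the control library, with q = 0.0325 in the authors' deposited table, and at 28.5 FPKM in mammospheres and 25.3 FPKM in bulk. Tcf7l2, another Wnt pathway factor, was at 2.49 FPKM in mammospheres and 5.33 FPKM in bulk. Beta-catenin (Ctnnb1) was at 294 FPKM in mammospheres and 238 FPKM in bulk, and at 259 FPKM in the knockdown and 245 FPKM in the control library.

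**Figure D4:**
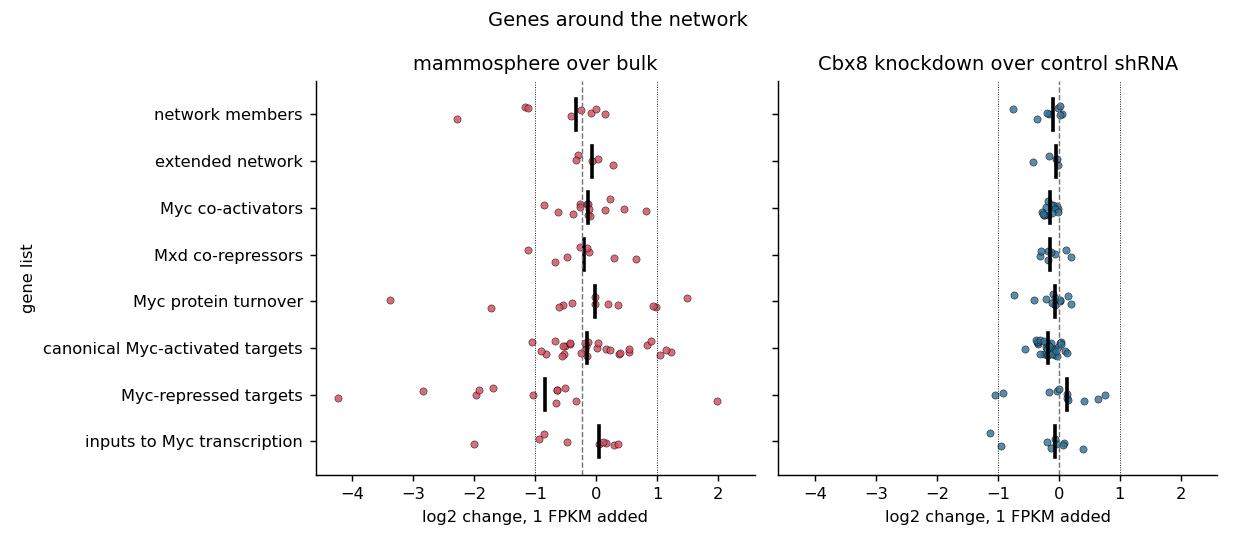
Log2 change with 1 FPKM added for each gene at 1 FPKM or more in 8 lists, in mammospheres over bulk (left) and Cbx8 knockdown over control shRNA (right). Each point is a gene, black bars are list medians, the dashed line is the median of all rows (-0.24 on the left and -0.006 on the right) and dotted lines mark 2-fold. The list labelled as genes repressed by Myc, a label in doubt for Id2, has the lowest median on the left (-0.84) and the highest on the right (0.13).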

How the data were processed

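The submitters' processing notes name build mm9 and, with no order or role, Cuffdiff (as 0.0.7), TopHat 1.4.0, FastQC 0.10.0 and Cufflinks 1.3.0. Their settings are unknown here. The authors deposited 2 Cuffdiff tables holding FPKM per gene and their own p-value and q-value for each pair of libraries. The column taken as bulk is headed D0MS. It was matched to the bulk sample by that sample's day 0 label and the table's heading of MS against bulk. How reads mapping to several places were assigned is unknown. In the mammosphere table the authors tested 4045 of 22440 rows. No value of 0 occurs in the knockdown table, which may have been filtered.

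Here rows were matched by symbol, log2((FPKM + 1)/(FPKM + 1)) was computed, and rows with 1 FPKM or more in either library were counted at 2-fold or more, whatever the authors' tested status. Failed rows, 15 placeholder rows with a value of exactly 1 and no statistic, and 2 summary lines were left out. So were 3 rows of the mammosphere comparison that the authors marked HIDATA. Coordinates are those of the tables, with starts counted from 1. The members and lists were chosen with earlier results of these data known. Named genes were drawn from all members, the up to 4 genes furthest from 0 in each list and comparison, the 5 rows nearest to Myc, and Cbx8. Mlxipl, Fbxw7, Odc1, Cdkn1a, Ctnnb1, Hdac1 and Eif4a1, the neighbour Pvt1, and the cell type markers Tyrobp, Krt8, Krt14, Cdh1 and Epcam fall outside that rule and were chosen after their values were seen. The counting step was run on simulated data with 4-fold changes planted in rows at 5 FPKM or more. Such a run does not cover calls near 2-fold, changes in weakly expressed rows or the spread between real libraries. Likeness of the proteins was not analysed here. Some genes that the naming rule picks are not reported here. Promoter sequences are RefSeq's (GRCm38.p6), and no coordinates were converted. Python 3.11.15 and pandas 2.3.3 were used.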

Additional observations from a re-analysis of the deposited data

How the results depend on the processing

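In the mammosphere comparison, Myc and Mxd4 lost the 2-fold call after centring and with equal upper quartiles, and Mxd4 also with 5 FPKM added. The count of lower members was 1 (Mxd1) after centring, with equal upper quartiles and at 4-fold. It was 1 (Myc) among the 2 members the authors tested, and 0 at the authors' q under 0.05. Shares of all rows were not computed at 1.5-fold, at 4-fold or among tested rows at 2-fold. The members' median was -0.22 with 5 FPKM added, -0.14 centred, -0.046 with equal upper quartiles, -0.20 with no minimum (10 members) and -0.71 over the 2 tested members. Of 40 member values under 5 alternatives, 35 kept their side of the 2-fold limit and 5 did not. In the knockdown comparison 40 of 40 did, and the count of lower members moved to 1 only at the 1.5-fold limit. Both tallies include the summing of rows with the same symbol. That alternative could change no value, because each member had a single row. The small changes of Max, Mxi1 and Mlx in mammospheres turned positive with equal upper quartiles (0.07, 0.22 and 0.30), and those of Mxd4 and Mlx in the knockdown turned negative (-0.02 and -0.01). List medians in mammospheres moved up under the same scalings, and those of the related factors (-0.07, or 0.12 centred), co-activators (-0.13, or 0.05), turnover genes (-0.01, or 0.17) and activated targets (-0.14, or 0.04) changed sign, as did that of co-repressors with equal upper quartiles (-0.21, or 0.10); that of repressed targets did not (-0.84, or -0.65). The alternatives for these other lists were added after the data were seen. No paired analysis was possible because each group was 1 library. With no counts deposited, depth sets no interval here.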

Other observations

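Pvt1, a noncoding RNA gene next to Myc, was the only row at 1 FPKM or more within 1 Mb of Myc in the tables' coordinates, and was chosen after the data were seen. It was at 1.53 FPKM in mammospheres and 4.61 FPKM in bulk (log2 -1.15), and at 3.498 FPKM in the knockdown and 3.79 FPKM in the control library (-0.09).

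Some genes of the lists had very different levels in the 2 tables, which were made separately. Hdac1, the histone deacetylase of Sin3 complexes, was at 70.2 FPKM in mammospheres and 56.9 FPKM in bulk, but at 7.62 FPKM in the knockdown and 7.98 FPKM in the control library. Sap18 was at 45.9 FPKM in mammospheres and 100.7 FPKM in bulk, but at 6.26 FPKM in the knockdown and 5.35 FPKM in the control library. The translation factor Eif4a1 was at 484 FPKM in mammospheres and 653 FPKM in bulk, but at 104 FPKM in the knockdown and 101 FPKM in the control library. The cause was not tested, and neither was how far such differences enter the orders and ratios between genes given above.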
